A study of Mus musculus with 8 samples.

Results

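The Slc25a genes encode the mitochondrial solute carriers. They were taken as all gene symbols that begin with Slc25a, apart from Slc25a20 and Slc25a5-ps. They were found through the accession of each non-control probe on the array. Of 18346 named genes with a probe, 44 were such carriers. Of these, 37 had a probe bright enough to be tested, among 20135 genes and unnamed probes tested in all.

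Carriers of this family are built from a repeated pair of membrane-spanning helices and sit, with few exceptions, in the inner mitochondrial membrane, which is otherwise closed to most charged metabolites. They exchange ADP for ATP, bring in phosphate, and pass citrate, malate, amino acids, nucleotides, coenzymes and iron between cytosol and matrix. The heart is packed with mitochondria, so the adenine nucleotide and phosphate carriers rank among its typical abundant proteins.

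RNA came from whole hearts of male C57BL/6J mice, a standard inbred strain, at 9 weeks of age. The control group held 4 heart samples of satiated mice with no treatment, and the other 4 samples of mice that had gone 2 days without food but with water. All had been kept on the same pelleted diet. Each heart was hybridised with 1 dye, Cy3, to 1 Agilent whole mouse genome array. Nothing in the labels beyond separate sample numbers says that replicates were separate mice, so p-values here speak only to the variation among these samples, which may be technical.

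The arrays lay on 2 slides, with replicates 1 and 2 of both groups on slide 1 and replicates 3 and 4 on slide 2. Between 54.4% and 68.9% of probes were well above background on an array, and more on slide 1 than on slide 2. No spot was saturated. With 4 arrays per group, the number of arrays limits the precision of every value. The 7 cardiac muscle markers checked were all measured, and their summed level spanned 1791 to 2434 in satiated and 1587 to 2298 in fasted hearts. Of these markers 1 was called, Actc1, cardiac actin, which fell 3.13-fold without overlap (-1.64 ± 0.13, adjusted p = 0.000353). Pln, the calcium pump regulator phospholamban, did not overlap either but was not called (-0.42 ± 0.14, adjusted p = 0.0680). Summed brown fat, fat, red cell, fast skeletal muscle, endothelial and macrophage markers overlapped between the groups as well, each list having 3 or more measured members. A sum follows its brightest probes. Among fast skeletal markers, Myh4 stayed at 151 to 236, but Actn3 was at 12.0 in satiated replicate 1 and 0.0490 to 0.103 elsewhere. In that heart Pvalb was at 3.13 (0.0306 to 0.0464 elsewhere) and Mybpc2 at 21.7 (6.18 to 9.89 elsewhere). The brown fat marker Ucp1 spanned 2.16 to 19.2 in satiated and 1.65 to 24.2 in fasted hearts. The fibroblast sum did not overlap (181 to 191 satiated, 215 to 271 fasted), but most of it was Dcn (141 to 158 and 201 to 260). Dcn was called higher, Col1a1 and Lum lower (3.21-fold and 2.78-fold), and Pdgfra was not called. The sum thus does not give a direction for the list. The part of these cell types in the results below was not tested. In whole tissue, fewer cells of a type and less RNA per cell cannot be told apart.

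Levels below are scaled intensities: the background-subtracted brightness of a probe divided by the 75th percentile of its array, so that 1 equals that percentile. They compare hearts for 1 probe and not 1 carrier with another. Differences are log2 fold changes, fasted minus satiated, with the standard error (SE) of limma's fit to 4 hearts per group. A carrier is called at a Benjamini-Hochberg adjusted p under 0.05 over all 20135 features.

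The fasted hearts had higher messenger RNA for carriers of iron (Slc25a28), pyrimidine nucleotides (Slc25a36) and folate (Slc25a32), for the uncoupling protein relative Slc25a27 and, near background, for a carrier of glutamate (Slc25a18). Carriers lower in them included those of S-adenosylmethionine (Slc25a26) and of aspartate and glutamate (Slc25a13), and Slc25a35. Slc25a2, an ornithine carrier near background, was called lower too. Its call was lost without any 1 of 5 hearts and with another background correction. In all, 5 carriers were called higher and 5 lower, 27.0% of the 37 measured, where 20.2% of all features were called (9.83% higher and 10.3% lower). The lower count was 8 without fasted replicate 3 and 9 with either slide or replicate number as a block. The remaining 27 were not called, and the 37 had a median change of -0.15, against 0.00 (-0.00405) over all features. Groups did not overlap for 13 of the 37 carriers (35.1%; 6 higher in fasted hearts and 7 lower), against 27.6% of all features (13.3% higher and 14.3% lower). Both counts include Slc25a18 and Slc25a2, for which the hearts of the higher group alone sufficed for the probe to be kept. The share called is thus not far from the background, and what follows describes which carriers made it up.

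**Figure D1:**
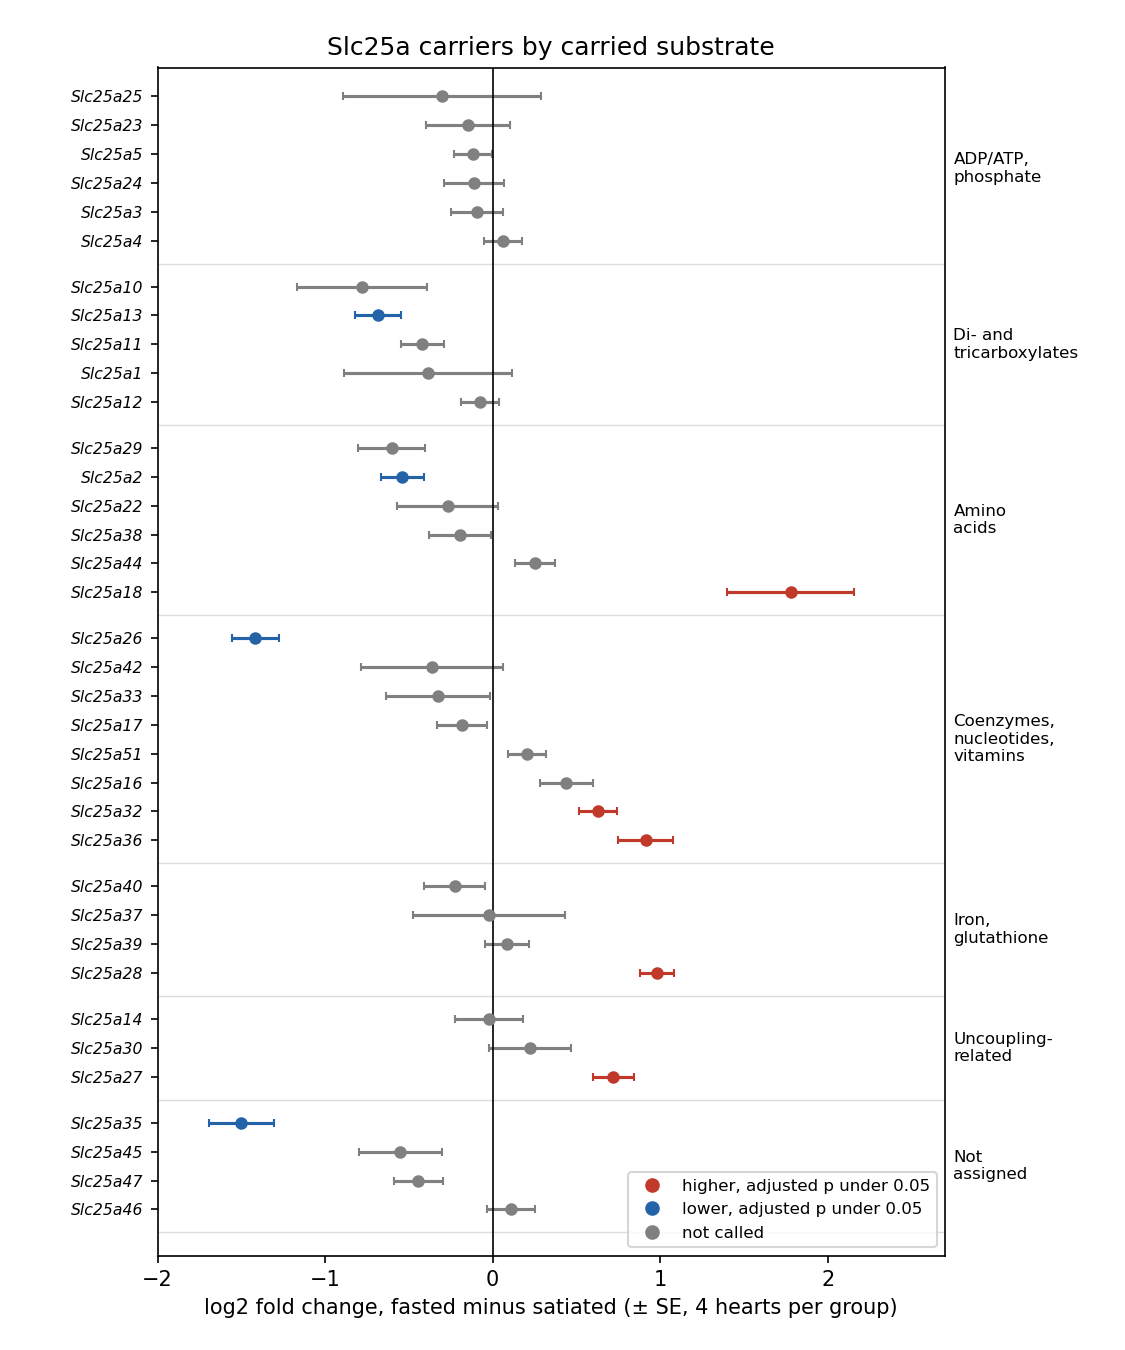
Log2 fold change, fasted minus satiated, of 36 of the 37 measured Slc25a carriers (points) with SE (bars), 4 hearts per group, grouped by the substrate carried. Colour marks the 5 carriers called higher and 4 called lower at an adjusted p under 0.05. None of the 6 carriers of ADP, ATP and phosphate is among them, where 20.2% of all features were called.

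Sequence upstream of the start was at hand for 4 of the called carriers, Slc25a13, Slc25a18, Slc25a28 and Slc25a36. Shown here are the 250 bases before the start of 1 carrier that fell and 2 that rose, since 2 of the 4 windows share the letters CACGTG, the E-box, in capitals. Sequences are from RefSeq, build GRCm38.p6, 5′ to 3′ on the strand of the gene, at chr6:6217174-6217423 (minus strand), chr9:97111042-97111291 (minus strand) and chr19:43674882-43675131 (minus strand).

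Slc25a13: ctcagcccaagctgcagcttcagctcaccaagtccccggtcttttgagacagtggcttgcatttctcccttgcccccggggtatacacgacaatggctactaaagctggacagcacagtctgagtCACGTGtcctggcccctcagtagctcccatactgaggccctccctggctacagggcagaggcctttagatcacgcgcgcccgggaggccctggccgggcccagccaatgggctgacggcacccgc

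Slc25a36: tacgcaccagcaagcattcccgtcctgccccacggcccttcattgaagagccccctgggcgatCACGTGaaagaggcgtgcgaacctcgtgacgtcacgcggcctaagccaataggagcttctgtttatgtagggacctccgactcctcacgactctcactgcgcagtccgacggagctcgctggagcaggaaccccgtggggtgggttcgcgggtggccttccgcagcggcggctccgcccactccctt

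Slc25a28: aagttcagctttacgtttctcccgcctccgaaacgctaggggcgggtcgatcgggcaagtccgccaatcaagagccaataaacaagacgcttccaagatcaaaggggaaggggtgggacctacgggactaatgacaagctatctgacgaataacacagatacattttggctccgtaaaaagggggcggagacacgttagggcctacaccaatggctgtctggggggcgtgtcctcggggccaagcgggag

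Both strands were searched for 6 motifs: the E-box CACGTG, the nuclear receptor half-site AGGTCA, the forkhead motif GTAAACA, the amino acid response motif TTGCATCA, the NRF1 motif and the glucocorticoid response element. No motif contains another of the 6. CACGTG stood once in the windows of Slc25a13, which fell, and of Slc25a36, which rose, and none of the 6 stood in those of Slc25a28 and Slc25a18. Of 42 windows of 33 carriers, 8 (19.0%) held CACGTG, against 6.02% of all 32851 windows of the same length. Those 8 windows belong to 7 carriers, and of the 5 measured Slc25a13 was lower, Slc25a36 higher, and Slc25a1, Slc25a14 and Slc25a33 were not called. The median share of G and C was 56.8% in the carriers' windows and 52.4% in all, and the part of base composition in this difference was not tested. AGGTCA was in 3 of the 42 windows (7.14%, against 14% of all), and the other 4 motifs in none of them, where 0.00913% to 3.17% of all windows held each. A match is a string of letters in a window and not a site known to be bound.

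The carriers of adenine nucleotides and phosphate, which export ATP and import ADP and phosphate for its synthesis, showed no called change. None of the 6 measured reached an unadjusted p under 0.05 in limma (0 of 6), where 6814 of all 20135 features did. When slide was added to the fit 0 of 6 were called, against 35.5% of all features. Slc25a4, the ADP/ATP carrier of heart and muscle, had scaled intensities of 589.6, 496, 547 and 560.0 in satiated and 533, 550.3, 642 and 562 in fasted hearts. The groups overlap throughout, with a difference of 0.06 ± 0.11 (adjusted p = 0.768 in limma). Slc25a5, the second ADP/ATP carrier of most tissues, spanned 112 to 121 in satiated and 93.1 to 115 in fasted hearts (-0.12 ± 0.11, adjusted p = 0.512). The phosphate carrier Slc25a3 was at 115, 116, 132 and 139 in satiated and at 102, 98.7, 142 and 132 in fasted hearts (-0.09 ± 0.16). In both groups its values were higher on slide 2 than on slide 1. The remaining members, Slc25a23, Slc25a24 and Slc25a25, are calcium-regulated exchangers of ATP-magnesium for phosphate. Slc25a23 differed by -0.15 ± 0.25 and Slc25a24 by -0.11 ± 0.18.

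Slc25a25 had the widest spread within groups of all 37 carriers. Its scaled intensities were 1.39, 2.10, 1.45 and 2.56 in satiated hearts and 2.68, 0.619, 0.743 and 3.81 in fasted hearts. The fasted hearts thus differed 6.15-fold among themselves, replicates 1 and 4 lying above every satiated heart and replicates 2 and 3 below every one. The group difference was -0.30 ± 0.59 (adjusted p = 0.777), and its other kept probes gave -0.13 ± 0.63 and -0.49 ± 0.56. Each slide held 1 high and 1 low fasted heart, so this spread does not follow the slide.

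Carriers of dicarboxylates and citrate, which serve the malate-aspartate shuttle and the export of citrate, all had values below 0, from -0.78 to -0.08. Of all 37 measured carriers, 25 had values below 0. Of the 5 measured in this group, 1 was called lower and 0 higher (20%, against 20.2% of all features). The called one was Slc25a13, known as citrin, which brings glutamate into the matrix in exchange for aspartate. It was at 19.3, 18.0, 15.0 and 14.7 in satiated hearts and at 10.8, 11.5, 10.1 and 9.22 in fasted hearts. Every fasted heart lay below every satiated heart, and the level fell 1.61-fold (-0.69 ± 0.14, adjusted p = 0.0111). Its close relative Slc25a12, called aralar, does the same exchange and stayed within 26.4 to 33.4 in all 8 hearts (-0.08 ± 0.11, adjusted p = 0.70).

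Slc25a11, which exchanges malate for 2-oxoglutarate in the same shuttle, did not overlap between groups but missed the threshold. It was at 153, 149, 172 and 174 in satiated hearts and at 115, 105, 138 and 129 in fasted hearts (-0.42 ± 0.13, adjusted p = 0.0526). It passed once slide was a block in the fit (adjusted p = 0.00588), and also when fasted replicate 3 was left out (adjusted p = 0.0355). Leaving out any other single heart did not bring a call (adjusted p up to 0.139). Slc25a10, the dicarboxylate carrier that swaps malate or succinate for phosphate, was at 3.85, 4.14, 2.20 and 2.51 in satiated and at 2.56, 3.0, 0.975 and 1.35 in fasted hearts. The groups overlap over all hearts but not within a slide, where the change was -0.53 on slide 1 and -1.04 on slide 2. Over all hearts it was -0.78 ± 0.39 (adjusted p = 0.198), and it passed once slide was a block (adjusted p = 0.00883).

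Slc25a1, the citrate carrier, varied among satiated hearts more than between the groups. It was at 0.322, 0.527, 1.16 and 1.81 in satiated hearts and at 0.508, 0.483, 0.701 and 0.714 in fasted hearts. The satiated hearts spanned 5.64-fold and the fasted hearts 1.48-fold. The difference was 0.27 on slide 1 and -1.04 on slide 2, and -0.39 ± 0.50 over all hearts (adjusted p = 0.646). The summed level of 4 measured fat cell markers (Adipoq, Plin1, Cfd and Retn) was 27.5, 35.9, 47.7 and 86.1 in the satiated hearts, in the same order as Slc25a1. In the fasted hearts it was 62.8, 63.3, 28.5 and 50.5, with no such order. Other marker sums were in the order of Slc25a1 in the satiated hearts too. They were brown fat (89.7, 102, 104 and 130) and macrophages (5.57, 7.41, 7.56 and 8.03). The part of these cell types, or of the slide, in the Slc25a1 values was not tested.

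**Figure D2:**
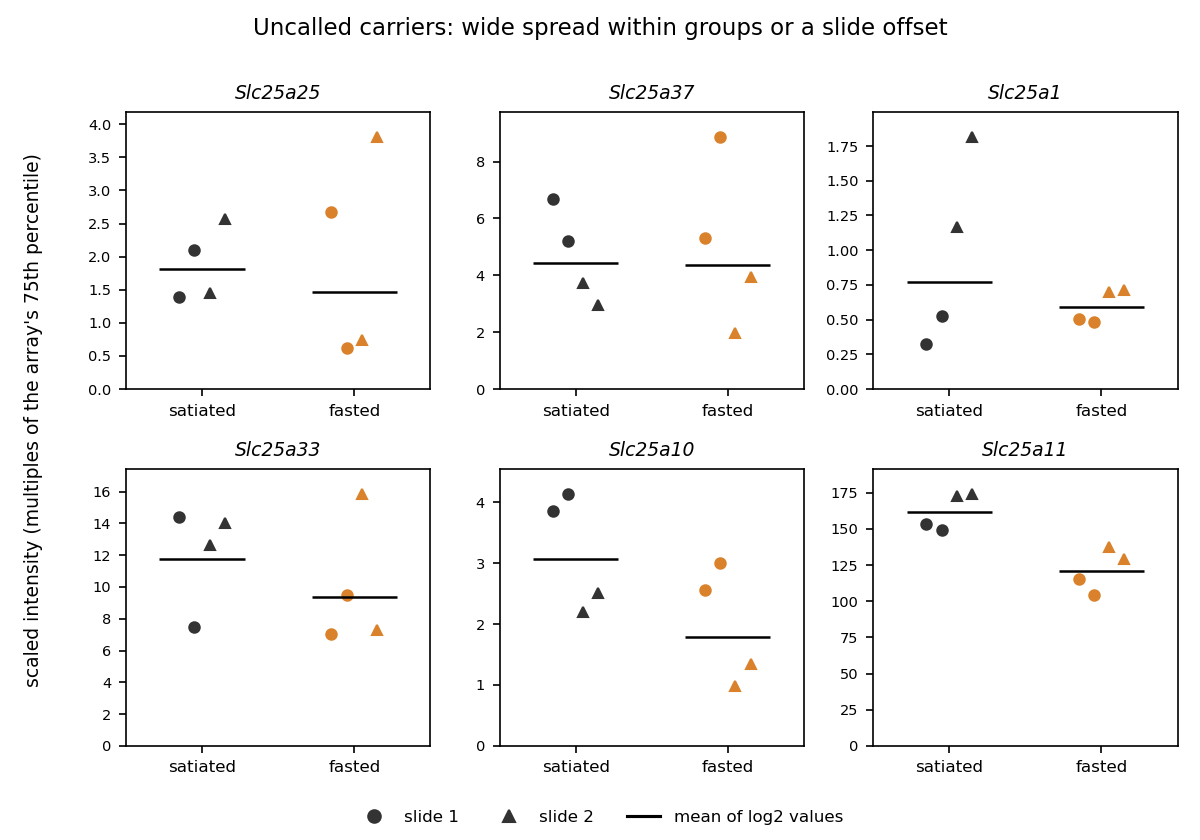
Scaled intensity (multiples of the 75th percentile of the array) of 6 uncalled carriers in each heart, with circles for slide 1, triangles for slide 2 and a bar at the mean of the log2 values. Slc25a25 spans 0.619 to 3.81 in fasted hearts and Slc25a1 spans 0.322 to 1.81 in satiated hearts, while Slc25a10 is lower in fasted hearts within each slide.

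Among 6 measured amino acid carriers, 1 was called higher and 1 lower, both dim (33.3%, against 20.2% of all features). Slc25a18, a glutamate carrier, was at 0.0260, 0.0313, 0.0204 and 0.0395 in satiated hearts and at 0.0851, 0.0595, 0.207 and 0.0869 in fasted hearts. Every fasted value was higher, and the measured difference was 3.43-fold (1.78 ± 0.38, adjusted p = 0.0141). The probe was well above background in all 4 fasted hearts and in 2 of the 4 satiated hearts, those of slide 1, so the fasted hearts alone sufficed for it to be kept. With normexp background correction, which models the background and adds an offset, the difference was 1.70-fold (0.77 ± 0.22, adjusted p = 0.0392), so its size depends on how the background is treated. Its relative Slc25a22, the second glutamate carrier, ranged from 0.974 to 2.07 in satiated and from 0.872 to 1.57 in fasted hearts (-0.27 ± 0.30).

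Slc25a2, an ornithine carrier of the urea cycle, was at 0.0814, 0.0777, 0.0914 and 0.0808 in satiated hearts and at 0.0588, 0.0511, 0.0672 and 0.0517 in fasted hearts. It fell 1.45-fold without overlap (-0.54 ± 0.13, adjusted p = 0.0221), but this was the least stable call of the 10. The probe was well above background in all 4 satiated and in 3 of the 4 fasted hearts, so the satiated hearts alone sufficed for it to be kept. It was lost without satiated replicate 1 (adjusted p = 0.0520), 3 (0.0625) or 4 (0.0575) and without fasted replicate 2 (0.0518) or 4 (0.0545). With normexp the value was -0.06 ± 0.11 (adjusted p = 0.767). Of the uncalled members, Slc25a44, which carries branched-chain amino acids, had the smallest p after Slc25a29, with 0.25 ± 0.12. Slc25a29, a carrier of basic amino acids, had a value of -0.60 ± 0.20 (adjusted p = 0.0672). It passed once slide was a block (adjusted p = 0.0479) or when fasted replicate 3 was left out (adjusted p = 0.0233). Without any other single heart Slc25a29 was not called (adjusted p up to 0.151). Slc25a38, which supplies glycine for haem synthesis, had -0.20 ± 0.18.

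Carriers of coenzymes, nucleotides and vitamins, the largest group with 9 measured, held the most called members, 2 higher and 2 lower. These were 44.4% of the group, against 20.2% of all features. Slc25a26, which brings the methyl donor S-adenosylmethionine into the matrix, was at 6.71, 6.97, 6.51 and 6.35 in satiated hearts and at 2.61, 2.83, 1.95 and 2.64 in fasted hearts. The hearts of each group lay close together and far from the other group, and the level fell 2.67-fold (-1.42 ± 0.14, adjusted p = 0.000825). A second probe of the same transcript was at 2.64, 2.56, 2.84 and 2.95 in satiated and at 1.70, 1.73, 1.88 and 1.78 in fasted hearts. It was lower in every fasted heart too, but by 1.55-fold (-0.63 ± 0.11, adjusted p = 0.00545 over all kept probes).

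Slc25a36, a carrier of pyrimidine nucleotides, went the other way. It was at 0.332, 0.349, 0.281 and 0.265 in satiated hearts and at 0.739, 0.535, 0.562 and 0.491 in fasted hearts, a rise of 1.89-fold (0.91 ± 0.16, adjusted p = 0.00733). Slc25a32, which carries folate and the flavin coenzyme FAD, was at 0.732, 0.830, 0.712 and 0.765 in satiated hearts and at 1.15, 1.22, 1.26 and 1.07 in fasted hearts. It rose 1.55-fold, with no overlap (0.63 ± 0.11, adjusted p = 0.00695).

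The other 5 members of that group were not called. Slc25a16, linked to coenzyme A in mitochondria, had the smallest p of these. It was at 1.41, 1.49, 1.27 and 1.11 in satiated and at 1.92, 2.08, 1.77 and 1.42 in fasted hearts (0.44 ± 0.16, adjusted p = 0.0872). It passed once slide was a block (adjusted p = 0.0137), or when fasted replicate 4 was left out (adjusted p = 0.0465). Without any other single heart Slc25a16 was not called (adjusted p up to 0.208). Slc25a51, the carrier of NAD, did not overlap between groups, at 4.46 to 4.66 in satiated and 4.82 to 5.88 in fasted hearts, but the difference was small (0.21 ± 0.11, adjusted p = 0.237). Slc25a33, the other pyrimidine nucleotide carrier, ranged from 7.47 to 14.4 in satiated and from 7.06 to 15.9 in fasted hearts (-0.33 ± 0.31). Slc25a42, the coenzyme A carrier, had -0.36 ± 0.42, and Slc25a17, which belongs to peroxisomes, -0.19 ± 0.15.

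Of 4 measured carriers of iron and glutathione, 1 was called (25%, against 20.2% of all features). Slc25a28, mitoferrin 2, imports the iron used for haem and iron-sulfur clusters. It was at 6.25, 6.35, 6.39 and 5.92 in satiated hearts and at 12.2, 12.6, 13.2 and 11.3 in fasted hearts. All 4 fasted hearts lay well above the satiated ones, and the level rose 1.97-fold (0.98 ± 0.10, adjusted p = 0.00104). The change was nearly equal on both slides, 0.97 and 0.99. Mitoferrin 1, Slc25a37, the form known from red cell precursors, was at 6.67, 5.22, 3.74 and 2.97 in satiated and at 5.32, 8.86, 1.96 and 3.94 in fasted hearts. Its values were widely spread, 4.52-fold among fasted hearts, and higher on slide 1 than on slide 2 in both groups (-0.02 ± 0.45). The summed level of 3 measured red cell markers (Alas2, Hba-a1 and Slc4a1) was 309.8, 165, 296 and 216 in the satiated and 250.3, 296, 223 and 315 in the fasted hearts. Of the 2 hearts of a group on a slide, the one with the higher sum had the higher Slc25a37 in 4 of 4 cases, and the part of red cells in its spread was not tested. The glutathione carriers Slc25a39 (0.09 ± 0.13) and Slc25a40 (-0.23 ± 0.18) were not called.

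Relatives of the uncoupling proteins numbered 3, of which 1 was called (33.3%, against 20.2% of all features). Slc25a27, also called uncoupling protein 4 and best known from brain, was at 0.409, 0.382, 0.394 and 0.427 in satiated hearts and at 0.563, 0.705, 0.735 and 0.666 in fasted hearts. It rose 1.65-fold without overlap (0.72 ± 0.12, adjusted p = 0.00578). Its other probes rose as well, by 0.85 ± 0.13 and 1.12 ± 0.15 (adjusted p = 0.00408 and 0.00247 over all kept probes). Slc25a30 (0.22 ± 0.25) and Slc25a14 (-0.02 ± 0.20) were not called.

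Among 4 measured carriers with no role assigned here, Slc25a35 changed most in size of all the carriers called lower. It was at 0.312, 0.390, 0.326 and 0.382 in satiated hearts and at 0.161, 0.140, 0.0907 and 0.116 in fasted hearts. Each fasted heart was below every satiated heart, and the level fell 2.83-fold (-1.50 ± 0.19, adjusted p = 0.00203). With normexp the value was -0.89 ± 0.12 (adjusted p = 0.00105). Slc25a47 did not overlap either, at 0.875 to 1.18 in satiated and 0.621 to 0.843 in fasted hearts, but was not called (-0.44 ± 0.15, adjusted p = 0.0658). Both blocking on slide (adjusted p = 0.0114) and leaving out fasted replicate 3 (adjusted p = 0.0490) brought it past the threshold. Leaving out any other single heart did not (adjusted p up to 0.153). Slc25a45 (-0.55 ± 0.25) and Slc25a46, a protein of the outer membrane (0.11 ± 0.14), were not called.

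**Figure D3:**
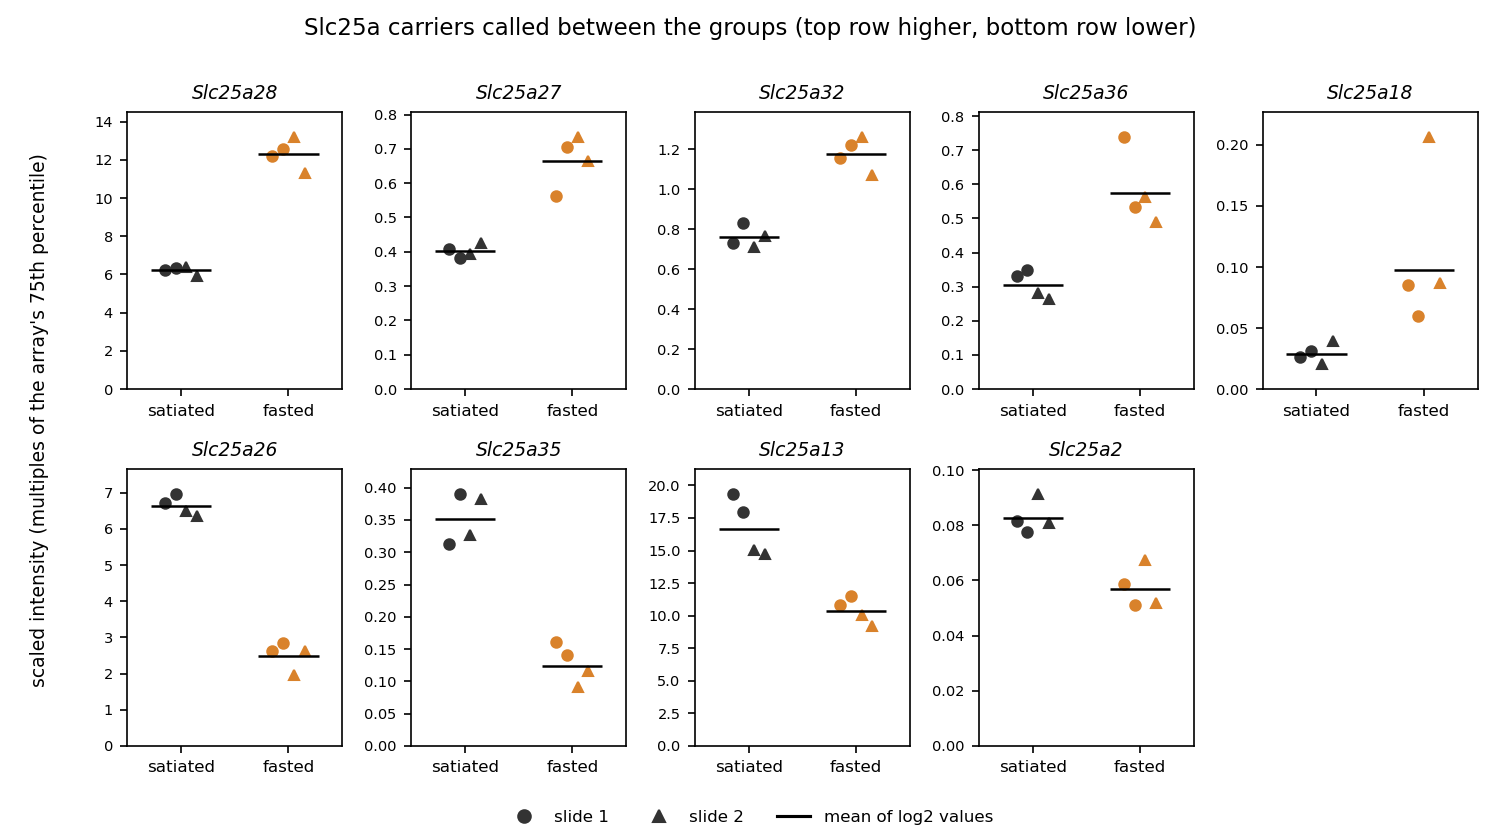
Scaled intensity (multiples of the 75th percentile of the array) of 9 called carriers in each heart, with circles for slide 1, triangles for slide 2 and a bar at the mean of the log2 values. In none of the 9 do the groups overlap; Slc25a28 spans 5.92 to 6.39 in satiated and 11.3 to 13.2 in fasted hearts.

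The 7 carriers with no tested probe were Slc25a15, Slc25a21, Slc25a31, Slc25a41, Slc25a43, Slc25a48 and Slc25a54. Slc25a15, the main ornithine carrier of the urea cycle, was well above background on 3 of 8 arrays. Slc25a31, the ADP/ATP carrier of testis, and Slc25a43 reached that on 1 array each, and the other 4 on 0. For Slc25a43 this array was fasted replicate 3, at 0.111, where the other 7 hearts had 0.00722 to 0.0149 on the same probe. A level below background on this array does not show that a transcript is absent.

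The groups did not overlap in any of the 10 called carriers, so their direction had to be the same on both slides. Of the 27 others, 21 had the same sign on each. The 6 with opposite signs were Slc25a1, Slc25a3, Slc25a14, Slc25a23, Slc25a37 and Slc25a46, none of them called. With the slide as a block, limma called 6 carriers higher and 9 lower, 40.5% of the 37, against 35.5% of all features (17.2% higher and 18.4% lower). All 10 earlier calls were among them, joined by Slc25a10, Slc25a11, Slc25a29 and Slc25a47 on the lower side and by Slc25a16 on the higher side. With the replicate number of the titles as a block the count was also 6 higher and 9 lower, against 32.1% of all features.

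**Figure D4:**
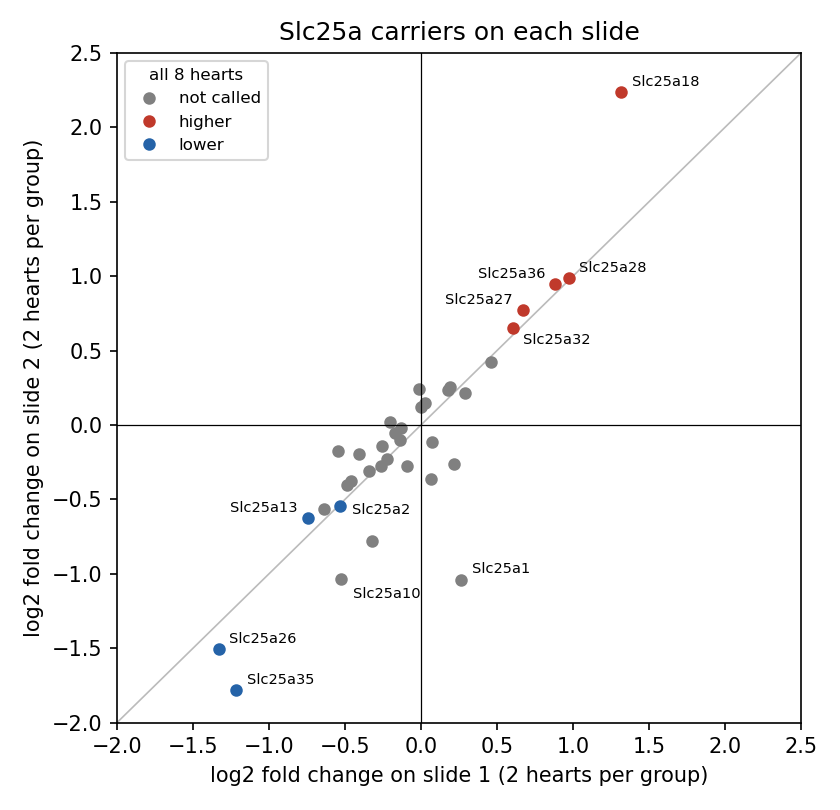
Log2 fold change, fasted minus satiated, of 36 of the 37 measured carriers on slide 1 (horizontal) and on slide 2 (vertical), with 2 hearts per group on each; the grey line marks equal values. The 9 called carriers drawn have the same sign on both slides, which follows from their groups not overlapping. Slc25a1 is at 0.27 on slide 1 and -1.04 on slide 2.

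Several carriers were read by more than 1 probe. Of 62 probes for the 44 carriers 52 were kept, and 11 carriers had more than 1 of these. All probes had the same sign in 8 of the 11, Slc25a26 and Slc25a27 included. In Slc25a37, Slc25a40 and Slc25a46 the signs differed, with no probe called. The other 8 called carriers rest on 1 kept probe each.

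Whether related carriers changed unequally was asked of 11 pairs, through the log2 ratio of the 2 genes within each heart. An exact permutation test (two-sided, all 70 assignments of the 8 hearts) cannot give a p below 0.0286, or below 0.314 after adjustment over 11 pairs if 1 pair alone reaches it. No pair passed after adjustment, and 2 reached the smallest p. The ratio of Slc25a18 to Slc25a22 was higher in fasted hearts by 2.05 ± 0.50 and that of Slc25a12 to Slc25a13 by 0.61 ± 0.18, without overlap between groups (exact permutation p = 0.0286, adjusted p = 0.157 for each). The first of these rests on a probe that was well above background in only 2 of 4 satiated hearts and was kept through the fasted ones. The mitoferrins, Slc25a28 over Slc25a37, differed by 1.0 ± 0.53 (exact permutation p = 0.114, adjusted p = 0.251), so a call for 1 of them does not show that they differ. Slc25a33 over Slc25a36 differed by -1.24 ± 0.43 (exact permutation p = 0.0571, adjusted p = 0.21), and Slc25a4 over Slc25a5 by 0.18 ± 0.12 (exact permutation p = 0.20, adjusted p = 0.314). In the other 6 pairs the differences ran from -0.36 to 0.80, with adjusted p of 0.236 to 0.857.

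Other genes of mitochondrial transport were counted for context, from a list of 30 that holds pores, the calcium uniporter, other transporters, and family members with other names. Of 29 measured, 3 were called higher and 2 lower (17.2%, against 20.2% of all features), with a median of -0.06. Mcur1, a regulator of the calcium uniporter, rose (0.70 ± 0.11, adjusted p = 0.00472), as did Slc8b1, the sodium-calcium exchanger of mitochondria (0.49 ± 0.12, adjusted p = 0.0227). Mtch1, a distant family member of the outer membrane, was called lower (-0.57 ± 0.16, adjusted p = 0.0422), but not without any 1 of 7 arrays, all but fasted replicate 4 (adjusted p = 0.0568 to 0.115). The uncoupling protein Ucp2 rose (0.63 ± 0.15, adjusted p = 0.0204). The carnitine carrier Slc25a20 (0.34 ± 0.32, adjusted p = 0.505) and Ucp3 (-0.92 ± 0.66, adjusted p = 0.374) were not called. Slc25a20 passed once slide was a block (adjusted p = 0.0123) and with the replicate block (adjusted p = 0.0335), and Ucp3 with the replicate block (adjusted p = 0.0304). The calls of Ucp2 and Slc8b1 were each lost without any of 3 arrays: for Ucp2 satiated replicates 1 and 2 and fasted replicate 4 (adjusted p = 0.0503 to 0.0596), and for Slc8b1 satiated replicates 1, 3 and 4 (adjusted p = 0.0595 to 0.0682).

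Of 34 measured enzymes that make or use the carried substrates, 3 were called higher and 3 lower (17.6%, against 20.2% of all features), with a median of -0.04. With slide as a block these counts were 9 and 6 (44.1%, against 35.5% of all features). Alas1, the first enzyme of haem synthesis, which uses glycine in the matrix, fell 2.45-fold (-1.29 ± 0.17, adjusted p = 0.00250). Gpd2 of the glycerol phosphate shuttle was called lower (-0.68 ± 0.16, adjusted p = 0.0206). Gpd2 lost its call without satiated replicate 3 or 4 or fasted replicate 4 (adjusted p = 0.0502 to 0.0560). Both subunits of glutamate-cysteine ligase, the first enzyme of glutathione synthesis, rose: Gclm by 1.57 ± 0.32 (adjusted p = 0.0127) and Gclc by 0.72 ± 0.17 (adjusted p = 0.0195). Gclc lost its call without satiated replicate 2, 3 or 4 (adjusted p = 0.0525 to 0.0599). Pank2, which starts coenzyme A synthesis, rose by its brightest probe (0.55 ± 0.10, adjusted p = 0.00908) but averaging its probes gave 0.09 ± 0.10 (adjusted p = 0.590). The transaminases and malate dehydrogenases of the malate-aspartate shuttle, Got1, Got2, Mdh1 and Mdh2, were not called without a slide term. With slide as a block in limma, Mdh1 passed (adjusted p = 0.00950), while Got1, Got2 and Mdh2 did not (adjusted p = 0.0562 to 0.810).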

How the data were processed

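Total RNA of 8 hearts was measured on one-colour Agilent whole mouse genome arrays. The authors deposited scanner tables of spot intensities, background-subtracted on each array by Agilent Feature Extraction and not normalized between arrays, per the file headers. These name version 10.5.1.1 for slide 1 and 10.7.3.1 for slide 2, whereas the submitters' processing notes name 9.1; slide, scan and software cannot be told apart. A further table that the authors deposited gives linear ratios per probe, and how they were made is not stated; their log2 values were an alternative.

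Spots marked as outliers and controls were left out, log2 intensities of a probe were averaged, and each array was set relative to its 75th percentile. The filter required a probe to be well above background on 4 or more of 8 arrays (26476 of 41174 kept), and the brightest such probe stood for its symbol. Accessions were matched to RefSeq, assembly GRCm38.p6, for names: 26910 probes (65.4%) had 1 symbol, 0 several and 14264 none. The groups were compared with limma 3.58.1 in R 4.3.3 (lmFit, eBayes, two-sided, Benjamini-Hochberg), with no slide term. Python 3.11.15, scipy 1.17.1 and matplotlib 3.10.9 served for permutation tests and plots. The fit was tested on simulated data.

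As a check of pairing, the deviations from the group mean of satiated and fasted hearts with the same number were correlated (r = 0.44, 0.47, 0.33 and 0.49 across features, which are not independent replicates). Hearts of other number on the same slide correlated as much (0.29 to 0.52), so a shared number went with no higher correlation than a shared slide alone. Hearts on different slides had -0.53 to -0.28, where deviations that cancel within a group force some negative values. The source was not tested. Members and gene lists were chosen with earlier results of these data known. Named were the called carriers with their value in every heart, the uncalled carrier of smallest p in each group, the pairs, and the called genes of 2 further lists. The tables had no gMeanSignal, so normexp (offset 50) used the median signal. The carriers' protein sequences are not used here, and 1 called carrier and 2 called genes of the further lists, though counted, are not reported here.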

Additional observations from a re-analysis of the deposited data

Results flagged for a closer look

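In 4 of 96 groups of 4 hearts checked, 1 heart stood apart by the ratio of its gap to the whole range, above Dixon's critical value; chance flags about 1 group in 20. Slc25a14 was highest in fasted replicate 4, at 1.48 against 0.958 to 1.01 in the other fasted hearts (ratio 0.874). Ucp2 was lowest in fasted replicate 1, at 1.56 against 2.02 to 2.13 (ratio 0.8293). Slc8b1 was highest in satiated replicate 2, at 0.444 against 0.395 to 0.399 (ratio 0.917), and Pank2 in satiated replicate 3, at 0.994 against 0.902 to 0.909 (ratio 0.922). Without these hearts the calls of Ucp2, Slc8b1 and Pank2 remained.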

How the results depend on the processing

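Over the 19 alternatives the median change of the carriers ran from -0.21 to -0.10 (from -0.17 to -0.10 with 1 heart left out), and no called carrier changed sign. Where an alternative only left out hearts this sign was fixed, since the groups of the called carriers do not overlap. The count of carriers called higher, 5, became 2 on slide 1 alone and 0 on slide 2 alone, with 2 hearts per group; with 1 heart left out it was 5 to 6. The count called lower, 5, became 9 with the slide as a block, 9 with the replicate block, 0 on slide 2 alone and 8 without fasted replicate 3; with 1 heart left out it was 4 to 8. On slide 2 alone limma called 1 of 20135 features, with 5315 at an unadjusted p under 0.05. On slide 1 alone, also with 2 hearts per group, it called 1872, with 6544 at an unadjusted p under 0.05. Of the 10 calls, 9 held in every alternative that used 6 or more hearts and tested the carrier; Slc25a18 was not tested where probes had to be well above background on all arrays.

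Of the transport genes outside Slc25a, 3 higher became 1 without the filter on dim probes, 5 with the replicate block, 1 on slide 1 and 0 on slide 2, and 1 to 3 with 1 heart left out. Their 2 lower became 1 without that filter, 4 with the stricter filter, 7 with the slide as a block, 7 with the replicate block, 5 with quantile normalization, and 1 each with median scaling, the mean of all kept probes, the deposited table and slide 1; it was 0 on slide 2 and 1 to 3 with 1 heart left out. Of the enzymes, 3 higher became 9 with the slide as a block, 9 with the replicate block, 1 on slide 1 and 0 on slide 2 (2 to 3 with 1 heart left out), and 3 lower became 1 without the filter, 6 with the slide as a block, 6 with the replicate block, 1 on slide 1 and 0 on slide 2 (1 to 3). The cause of these moves was not tested. No pair of carriers passed under any alternative tested, the smallest adjusted p being 0.105 in the exact permutation test. With 70 assignments and 11 pairs, a pair could pass only if most pairs reached the smallest p, so this test cannot decide the question. Signal over background limits the dim carriers, Slc25a2 and Slc25a18 above all.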
